A study of Mus musculus with 55 samples.

Results

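The collagen genes of the mouse were followed in the ventral dentate gyrus across housing and social defeat. They were taken as the protein-coding genes whose symbol is Col, a number, the letter a and a number, with at least 100 counts in all over 54 mice. This gave 44 collagen genes of the 45318 genes in the count tables, where 15609 protein-coding genes reached the same total. By the structure of their proteins, 11 of the 44 were fibrillar, 9 were network-forming, 9 belonged to the FACIT class (fibril-associated collagens with interrupted helices), 6 formed beaded filaments, 4 were transmembrane, 2 were multiplexins, 1 formed anchoring fibrils and 2 were outside these classes. No difference between the groups was used to choose them.

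Collagens are proteins of the extracellular matrix whose chains wind around each other into a helix, and chains of different genes often have to join to make 1 molecule. In most tissues the fibrillar collagens give tensile strength, FACIT collagens sit on the surface of fibrils, and the network collagens of type IV form the sheet of every basement membrane. The brain holds little fibrillar collagen outside the meninges and vessel walls. Its capillaries rest on a basement membrane of type IV collagen, and some transmembrane and FACIT collagens are made by neurons.

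Each library held the RNA of 1 adult male C57BL/6J mouse, taken with a tissue puncher from slices through the ventral dentate gyrus. SH control mice (10 mice) were raised in standard housing (SH) and left unstressed. SH RES (7 mice) and SH SUS mice (10 mice) were raised in SH, exposed to chronic social defeat stress (CSDS) by CD-1 aggressors and classified as resilient (RES) or susceptible (SUS) by their social interaction with a CD-1 mouse. EE control, EE RES and EE SUS mice (9 mice in each group) were raised in an enriched environment (EE), with larger cages, more cage mates, tunnels, objects and running wheels, so that EE combined social, physical and sensory enrichment, and then treated like their SH counterparts. No mouse carried a transgene or a deletion that the labels name. The resilient and susceptible classes came from behavior after defeat and were not assigned at random, and a punch holds vessels and neighboring tissue beside the granule cells.

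Each mouse gave between 16760009 and 45872357 counts on genes, with a median of 21552884, the highest being EE control mouse 9, which was sequenced in 2 runs that were summed. Between 6591 and 22314 of these counts per mouse fell on collagen genes, and 546411 over all mice. Levels are given as CPM, counts scaled to the size of the library after TMM normalization, as mean ± SD over mice. Where genes are set against each other, CPM was divided by the exon length of the gene in kilobases (CPM per kb). The tissue label was checked on marker genes. The dentate granule cell markers summed to between 267.9 and 641 CPM, with Prox1, the transcription factor that sets granule cell identity, at a mean of 141 CPM. Markers of CA3 pyramidal cells summed to between 301 and 511 CPM and those of the thalamus to between 104 and 643 CPM. As the lists hold different genes, these sums do not give shares of tissue.

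A few mice stood apart by markers of a neighboring tissue. In 6 mice the markers of choroid plexus epithelium, the tissue that makes cerebrospinal fluid, summed to more than 100 CPM, against 18.0 to 79.3 CPM in the other 48 mice. The sums were 982 CPM in SH control mouse 3, 536 CPM in EE SUS mouse 3, 362 CPM in SH SUS mouse 3, 341 CPM in EE control mouse 9, 306 CPM in EE RES mouse 3 and 182 CPM in SH SUS mouse 7, most of it from Ttr (transthyretin), which reached 872 CPM in SH control mouse 3. No SH RES mouse was among them. Where leaving out these mice moved a named log2 fold change by over 1.5 times or took it past an unadjusted p of 0.05, the value with and without them, or without the mouse that moved it most, is given.

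Per length, the most abundant collagen of the ventral dentate gyrus was Col25a1 (ENSMUSG00000058897, chr3:130131501-130599877, plus strand of GRCm38), a transmembrane collagen of neurons, at 9.57 ± 0.600 CPM per kb (n = 54). It was followed by Col4a1 at 6.51 ± 0.842 CPM per kb, Col19a1 at 6.28 ± 0.582 CPM per kb and Col4a2 at 6.03 ± 0.919 CPM per kb. Col25a1 was above Col4a1 by more than the SD over mice, whereas Col4a1, Col19a1 and Col4a2 followed each other by less than their SD. Col4a1 and Col4a2 encode the chains of the type IV collagen found in all basement membranes, and Col19a1 encodes a FACIT collagen made by hippocampal interneurons. Col6a1, a chain of the beaded filaments, came next at 4.56 ± 1.92 CPM per kb. The lowest was Col24a1, a fibrillar collagen, at 0.0366 ± 0.0197 CPM per kb.

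**Figure D1:**
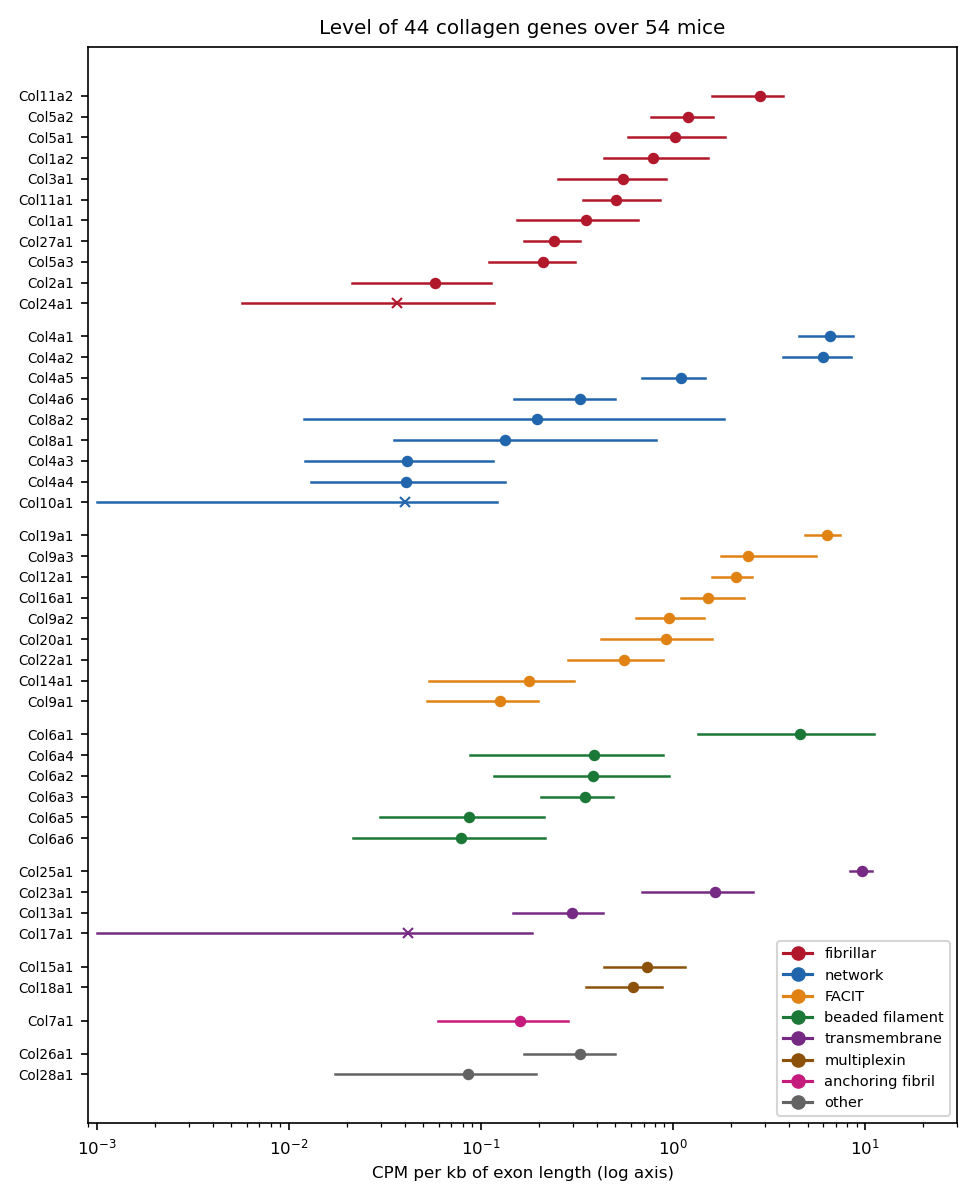
Level of the 44 collagen genes in CPM per kb of exon length on a log axis, grouped by class. Points are means over 54 mice, lines run from the lowest to the highest mouse with values of 0 drawn at 0.001, and crosses mark the 3 genes that did not pass the filter on low counts. Col25a1, Col4a1, Col19a1 and Col4a2 lead, and the line of Col8a2 is the longest of the genes that passed.

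Of the summed CPM of all 44 genes, the transmembrane collagens that passed a filter on low counts made up 29.2%, nearly all of it Col25a1, FACIT collagens that did so 23.9%, network collagens 21.97%, fibrillar collagens 14.9% and beaded filament collagens 6.98%. The total of all 11 fibrillar genes was 69.6 ± 12.3 CPM in SH control (n = 10), 65.6 ± 5.07 in SH RES (n = 7), 70.1 ± 5.32 in SH SUS (n = 10), 72.2 ± 10.3 in EE control, 66.3 ± 14.5 in EE RES and 67.4 ± 10.9 CPM in EE SUS mice (n = 9 each). The total of all 9 network genes was 98.4 ± 13.5 CPM in SH control, 96.2 ± 10.2 in SH RES, 102 ± 10.2 in SH SUS, 102 ± 10.1 in EE control, 107 ± 18.5 in EE RES and 101 ± 12.5 CPM in EE SUS mice. The ranges of both totals overlapped between all 6 groups.

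Among the fibrillar collagens, Col11a2 was the most abundant per length at 2.82 CPM per kb, and Col5a2 (1.19 CPM per kb) and Col5a1 (1.02 CPM per kb) followed. Types V and XI are the minor fibrillar collagens that start fibrils and limit their width. The major fibrillar chains of connective tissue were lower, with Col1a2 at 0.782, Col3a1 at 0.547 and Col1a1 at 0.352 CPM per kb. Col2a1, the main collagen of cartilage, was near the bottom of the order at 0.0571 CPM per kb. Type I collagen is built from 2 chains of Col1a1 for each chain of Col1a2, yet Col1a1 had the lower level here.

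Among the network collagens, Col4a5 at 1.10 CPM per kb and Col4a6 at 0.326 CPM per kb came after Col4a1 and Col4a2, and Col4a3 and Col4a4, which with Col4a5 form the basement membrane of the kidney glomerulus, were at 0.0412 and 0.0407 CPM per kb. Col8a2 and Col8a1 encode the short-chain collagen of vessel walls and of the cornea and were at 0.195 and 0.134 CPM per kb. Col10a1, the collagen of growth plate cartilage, had 148 counts over all mice and was at 0 in 6 of them.

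The remaining classes spanned the same range. Of the FACIT collagens, Col9a3 was at 2.46 CPM per kb, Col12a1, which binds collagen I fibrils, at 2.12 and Col16a1 at 1.53 CPM per kb. The beaded filament genes Col6a4 and Col6a2 were at 0.387 and 0.384 CPM per kb, far below Col6a1. Next to Col25a1, the transmembrane collagens Col23a1 and Col13a1 were at 1.65 and 0.297 CPM per kb. The multiplexins Col15a1 and Col18a1, which attach to the outer face of basement membranes, were at 0.729 and 0.614 CPM per kb, Col7a1 of the anchoring fibrils at 0.159 CPM per kb and Col26a1 at 0.326 CPM per kb.

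In CPM, Col25a1 ranged over mice from 117 to 135 with a median of 125 in SH control, from 116 to 131 (123) in SH RES, from 114 to 140 (126) in SH SUS, from 108 to 140 (119) in EE control, from 111 to 135 (115) in EE RES and from 119 to 136 (123) in EE SUS mice. No group was set off from another. Both its lowest and its highest mouse were of the EE control group. Col4a1 ranged from 33.8 to 54.3 CPM with a median of 47.2 in SH control, from 40.3 to 51.7 (46.7) in SH RES, from 41.7 to 58.1 (45.5) in SH SUS, from 43.9 to 60.7 (46.9) in EE control, from 36.6 to 64.3 (50.7) in EE RES and from 43.9 to 64.2 (48.0) in EE SUS mice. The 6 groups overlapped, the lowest value was in SH control mouse 7 and the highest in EE RES mouse 1.

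Some other members varied far more between mice of 1 group. Of the 44 genes, 41 passed the filter on low counts and were tested for differences, comprising 10 fibrillar and 8 network genes, while Col10a1, Col17a1 and Col24a1 were not tested. The median SD of log2 CPM within groups was 0.358 over the 41 genes, against 0.161 over all 18283 genes tested. It was 0.547 for beaded filament, 0.434 for network, 0.357 for fibrillar and 0.273 for FACIT genes. Since the SD falls with the level, each gene was also set against the genes of like mean CPM. Col25a1, with an SD of 0.0876, sat at percentile 48.3 of such genes, Col1a2 (0.425) at percentile 98.8, Col3a1 (0.463) at 98.1, Col6a1 (0.572) at 99.8, Col6a4 (0.688) at 99.1 and Col8a2 (1.09) at 99.5. Not all members were high by this measure, with Col9a1 at percentile 23.5, Col27a1 at 56.3, Col28a1 at 59.5 and Col9a2 at 60.5. The SD of Col8a2 includes the 6 mice of high choroid plexus markers, at 1.23 to 8.24 CPM against 0.0537 to 1.78 CPM in the other 48. It does not describe the 48 mice alone, for which no SD is given. Col6a1 ran from 5.86 CPM in SH control mouse 10 to 48.8 CPM in SH RES mouse 5.

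**Figure D2:**
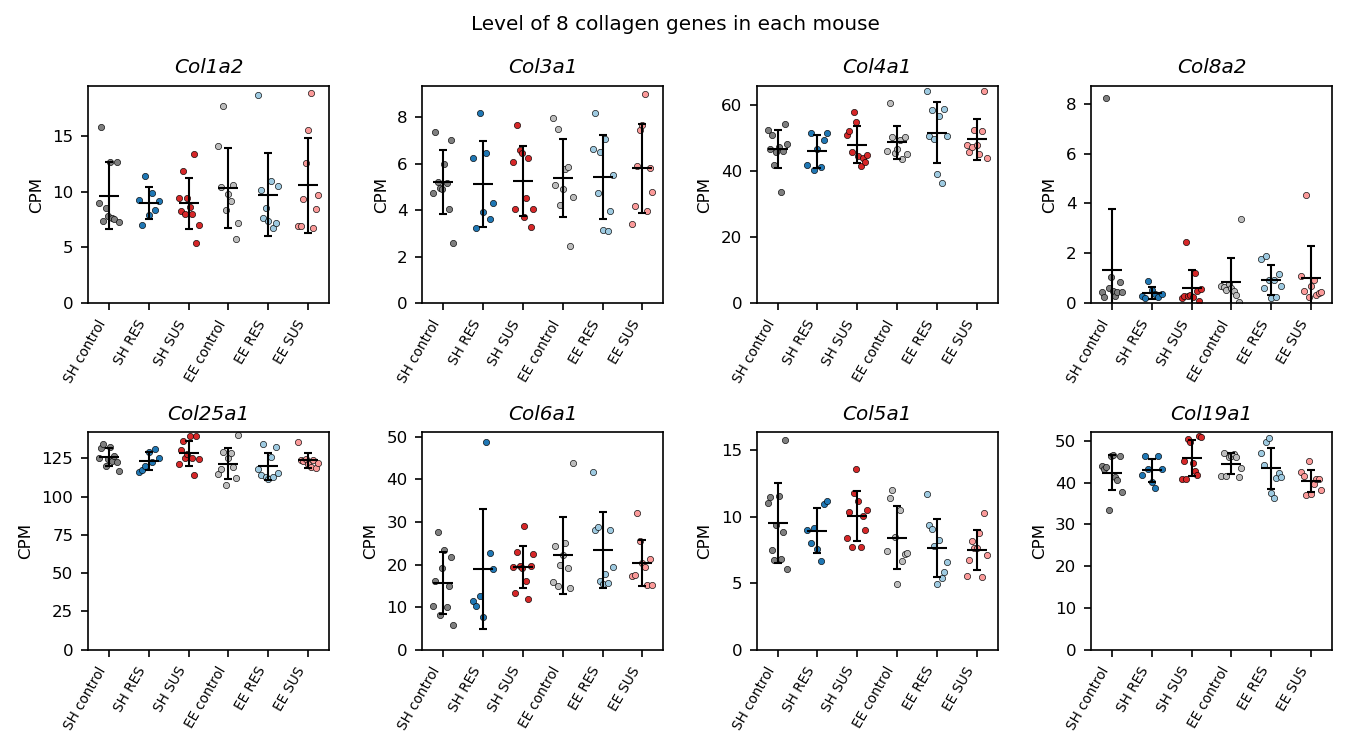
CPM of 8 collagen genes in each of the 54 mice, by group. Points are mice, and bars are the group mean ± SD, with the axis starting at 0 so that bars below 0 are clipped. All groups overlap for each gene, Col25a1 varies least, and the single high points of Col8a2 are SH control mouse 3, EE SUS mouse 3 and EE control mouse 9, which had high choroid plexus markers.

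The first question was whether collagen genes differed between stressed and unstressed mice of the same housing. After Benjamini-Hochberg adjustment over all genes, edgeR called 0 of the 41 collagen genes in SH RES against SH control mice (0% of all genes were called), 0 in SH SUS against SH control mice (0.0328% of all genes), 0 in EE RES against EE control mice (0% of all genes) and 0 in EE SUS against EE control mice (0% of all genes). At an unadjusted p under 0.05, edgeR gave 4 of 41 collagen genes in SH RES (3.51% of all genes), 1 in SH SUS (2.78%), 2 in EE RES (7.91%) and 1 in EE SUS mice (7.90%). The same counts were 4, 2, 1 and 1 with limma and 4, 1, 1 and 2 with DESeq2, neither of which called a collagen gene after adjustment. Over all genes the shares at an unadjusted p under 0.05 were, in the same order, 3.48%, 2.84%, 7.48% and 7.37% with limma. With DESeq2 they were 3.32%, 2.55%, 7.82% and 7.70%. Without the 6 mice of high choroid plexus markers the edgeR counts were 3 in SH RES (2.82% of all genes), 3 in SH SUS (3.16%), 2 in EE RES (8.31%) and 3 in EE SUS mice (9.43%), with 0 after adjustment. RES and SUS mice of a housing share their control mice in these comparisons.

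Of the fibrillar genes, 2 of 10 had a log2 fold change above 0 in SH RES, 6 in SH SUS, 3 in EE RES and 3 in EE SUS mice, with medians of -0.08, 0.01, -0.13 and -0.15. Of the network genes, 2 of 8 were above 0 in SH RES, 3 in SH SUS, 6 in EE RES and 5 in EE SUS mice, with medians of -0.07, -0.04, 0.06 and 0.06. Over all genes tested the median was between -0.01 and 0.00 in each comparison, and 47.4%, 49.8%, 49.5% and 47.5% were above 0. The intervals show what these numbers of mice can and cannot resolve. For Col4a1 the 95% interval of the log2 fold change was -0.20 to 0.15 in SH RES and -0.12 to 0.19 in SH SUS mice, and for Col25a1 it was -0.12 to 0.05 and -0.05 to 0.11. For Col1a1 it was -0.27 to 0.71 in SH RES and -0.47 to 0.43 in SH SUS mice, and for Col3a1 -0.43 to 0.41 and -0.36 to 0.40. As tissue was measured in bulk, fewer cells of a type and less RNA per cell cannot be told apart in any of these values.

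The smallest p in SH RES mice belonged to Col12a1 (ENSMUSG00000032332, chr9:79598991-79718831, minus strand), the FACIT collagen of type I fibrils. It ranged from 24.8 to 36.5 CPM with a median of 30.04 in SH control, from 30.4 to 38.6 (34.9) in SH RES, from 28.0 to 39.1 (30.8) in SH SUS, from 24.2 to 38.6 (30.8) in EE control, from 28.3 to 39.3 (33.8) in EE RES and from 27.4 to 39.1 (32.8) in EE SUS mice. All SH RES mice lay above the SH control median, and the groups overlapped. The log2 fold change in SH RES was 0.22 (SE 0.08), with p = 0.00591 by edgeR before and 0.9999 after adjustment, and it was between 0.19 and 0.26 with each mouse left out.

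Col8a2 (ENSMUSG00000056174, chr4:126286793-126314330, plus strand) had the largest log2 fold change of the 41 genes in SH RES mice, at -1.65 (SE 0.70, unadjusted p = 0.0228 by edgeR). It ranged from 0.250 to 8.24 CPM with a median of 0.468 in SH control and from 0.227 to 0.904 CPM with a median of 0.377 in SH RES mice. The medians were close and a single control mouse was high. That mouse was SH control mouse 3, the mouse with the highest choroid plexus markers, and without it the log2 fold change was -0.35 with p = 0.598. Col9a3, a FACIT collagen of cartilage, went the same way, from -0.30 (p = 0.0353) to -0.12 (p = 0.283) without SH control mouse 3. The other gene at p under 0.05 in SH RES mice was Col28a1, which is close to the beaded filament collagens, at 0.54 (SE 0.27, p = 0.0480), and it was 0.41 (p = 0.111) without the same mouse.

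In SH SUS mice Col19a1 (ENSMUSG00000026141, chr1:24261890-24587472, minus strand) had the smallest p. It ranged from 33.4 to 46.7 CPM with a median of 43.5 in SH control, from 38.8 to 46.3 (43.3) in SH RES, from 40.8 to 51.1 (44.9) in SH SUS, from 41.2 to 47.0 (46.0) in EE control, from 36.4 to 50.6 (42.3) in EE RES and from 37.1 to 45.2 (40.8) in EE SUS mice. The highest mice were of the SH SUS group, EE SUS mice had the lowest median, and all groups overlapped. By edgeR the log2 fold change was 0.11 (SE 0.06, p = 0.0469) in SH SUS against SH control and -0.14 (SE 0.06, p = 0.0192) in EE SUS against EE control mice, with adjusted p = 0.9997 and 0.550. The effect of defeat in EE minus that in SH, the test of this difference itself, was -0.15 (SE 0.07, p = 0.0346, adjusted p = 0.756), and it was -0.19 (adjusted p = 0.654) without the 6 mice of high choroid plexus markers. Without SH control mouse 4 it was -0.12 (p = 0.0813 by edgeR). The log2 fold change in SH SUS against SH control mice was then 0.08 (p = 0.144 by edgeR). Markers of neighboring tissue had other sums in EE SUS mice, where those of the thalamus summed to 353 ± 178 CPM against 169 ± 51.8 CPM in EE control mice (n = 9 each, exact permutation p = 0.00802, adjusted p = 0.112 over 98 tests) and those of CA3 pyramidal cells to 412 ± 34.7 against 356 ± 38.7 CPM (exact permutation p = 0.00580, adjusted p = 0.0947). All 7 thalamus markers had an unadjusted p under 0.05 by edgeR, and 0 passed after adjustment. Markers of oligodendrocyte precursors were lower, at 161 ± 5.65 CPM in EE SUS against 173 ± 9.97 CPM in EE control mice (exact permutation p = 0.00539, adjusted p = 0.0947). The part of these markers in the Col19a1 values was not tested.

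Col11a2 had the smallest p in EE RES mice. It ranged from 16.8 to 25.1 CPM with a median of 20.8 in EE control and from 10.9 to 24.2 CPM with a median of 19.0 in EE RES mice. EE RES mice were spread below and within the EE control range. The log2 fold change was -0.26 (SE 0.11, p = 0.0248, adjusted p = 0.610 by edgeR). The other gene at p under 0.05 was Col6a4, which can take the place of the third chain in beaded filaments, at -0.60 (SE 0.30, p = 0.0470), with 1.77 to 4.38 CPM in EE RES and 1.68 to 7.57 CPM in EE control mice. It was -0.53 (p = 0.113) without the 6 mice of high choroid plexus markers and -0.44 (p = 0.150) without EE control mouse 8.

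The second question was whether SUS mice differed from RES mice. After adjustment edgeR called 0 of 41 collagen genes in SH (0% of all genes) and 0 in EE (0% of all genes). At an unadjusted p under 0.05 it gave 0 collagen genes in SH (4.88% of all genes) and 0 in EE (3.52% of all genes). Limma also gave 0 in both (4.99% and 3.29% of all genes), as did DESeq2 (4.76% and 3.25%). Of the fibrillar genes, 8 of 10 were higher in SH SUS than in SH RES mice with a median of 0.08 on the log2 scale, and 3 of 10 in EE with a median of -0.03. Of the network genes, 7 of 8 were higher in SH SUS with a median of 0.12, and 3 of 8 in EE with a median of -0.04. Over all genes 51.5% and 49.99% were higher. The smallest p was that of Col12a1 in SH, at -0.13 (SE 0.08, p = 0.0919), and of Col19a1 in EE, at -0.10 (SE 0.06, p = 0.0791), which was -0.06 (p = 0.311) without the 6 mice of high choroid plexus markers.

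**Figure D3:**
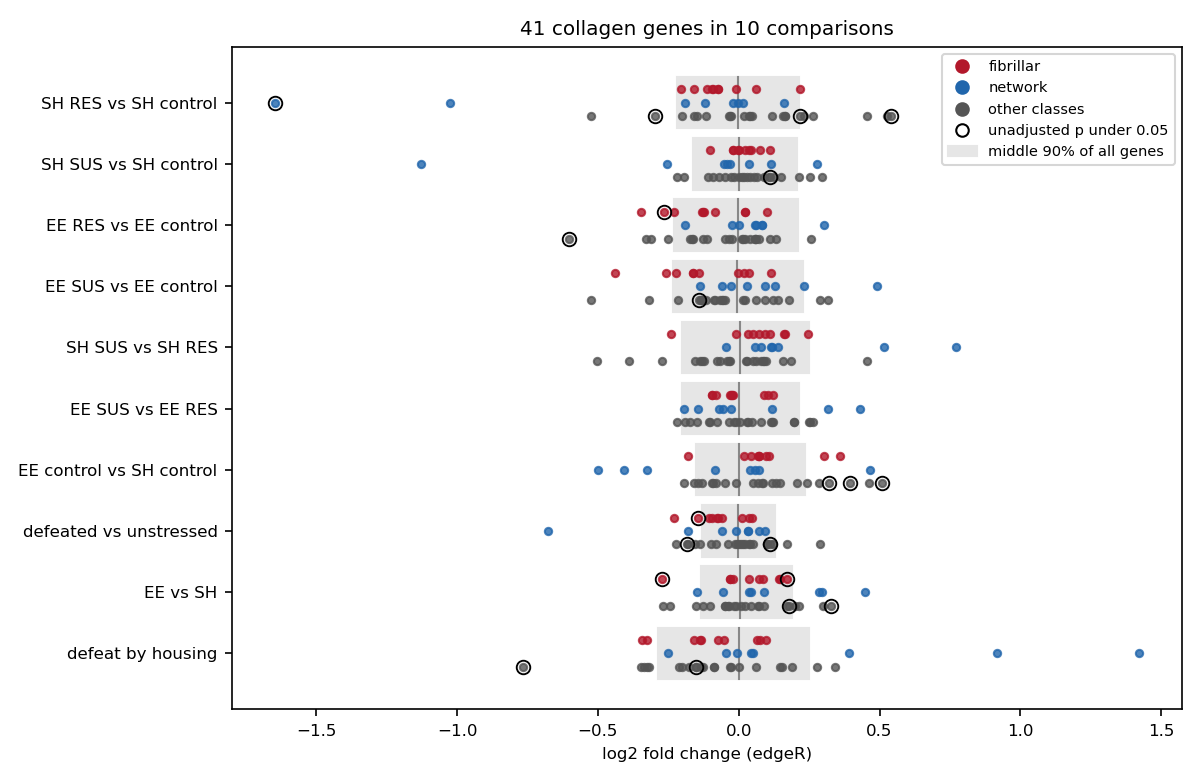
Log2 fold change by edgeR (x axis) of the 41 collagen genes in 10 comparisons, with fibrillar, network and other genes in separate rows of points. Grey bars hold the middle 90% of all genes tested, vertical lines mark their median, and circles mark an unadjusted p under 0.05. The points far to the left and right in blue are Col8a1 and Col8a2, and no circled point had an adjusted p under 0.05.

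The third question was housing. Among unstressed mice edgeR called 0 of 41 collagen genes between EE control and SH control mice (0.00547% of all genes). At an unadjusted p under 0.05 it gave 3 (5.02% of all genes), against 3 with limma (5.18%) and 2 with DESeq2 (4.88%). Fibrillar genes were above 0 in 9 of 10 cases with a median of 0.07, and network genes in 4 of 8 with a median of -0.02, beside 51.3% of all genes. The 3 genes were Col18a1, whose product yields the angiogenesis inhibitor endostatin, at 0.32 (SE 0.13, p = 0.0133, adjusted p = 0.860), Col7a1 at 0.39 (SE 0.19, p = 0.0380, adjusted p = 0.976) and Col6a1 at 0.51 (SE 0.25, p = 0.0466, adjusted p = 0.976). Col6a1 was 0.31 (p = 0.227) without EE control mouse 9, its highest mouse of that group at 43.7 CPM. Col18a1 ran from 2.46 to 5.80 CPM (median 3.57) in SH control and from 3.49 to 5.87 CPM (median 4.65) in EE control mice. The EE control median was the higher, and the ranges overlapped. Col4a3 was at 0.46 (SE 0.31, p = 0.138 by edgeR) in EE control mice, and at 0.79 (SE 0.28, p = 0.00797, adjusted p = 0.718) without the 6 mice of high choroid plexus markers.

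Over all 3 phenotypes, edgeR called 0 of 41 collagen genes between EE and SH mice (2.42% of all genes). At an unadjusted p under 0.05 it gave 4 of 41, or 9.76% (17.6% of all genes), limma gave 6 (17.5%) and DESeq2 gave 5 (17.6%). Without the 6 mice of high choroid plexus markers the edgeR count was 8 (18.3% of all genes), where 0 passed after adjustment (2.88% of all genes). Col5a1 was then at -0.32 (adjusted p = 0.0612), Col8a1 at 0.42 (SE 0.14, adjusted p = 0.0841) and Col8a2 at 0.57 (SE 0.21, adjusted p = 0.132). With all mice Col8a1 was at 0.28 (SE 0.28, adjusted p = 0.647) and Col8a2 at 0.45 (SE 0.37, adjusted p = 0.570). Fibrillar genes were above 0 in 6 of 10 cases with a median of 0.06, and network genes in 6 of 8 with a median of 0.07, beside 53.0% of all genes and a median of 0.00.

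The gene closest to the threshold was Col5a1 (ENSMUSG00000026837, chr2:27886425-28039514, plus strand), the chain that every type V collagen molecule contains. It ranged from 6.09 to 15.8 CPM with a median of 9.08 in SH control, from 6.64 to 11.2 (8.97) in SH RES, from 7.73 to 13.6 (10.2) in SH SUS, from 4.94 to 11.98 (7.38) in EE control, from 4.97 to 11.7 (7.77) in EE RES and from 5.44 to 10.2 (7.60) in EE SUS mice. The median was lower in each EE group than in each SH group, while all groups overlapped. Over all mice the mean was 9.54 ± 2.27 CPM in SH (n = 27) and 7.85 ± 2.02 CPM in EE (n = 27). The log2 fold change was -0.27 (SE 0.09, 95% interval -0.46 to -0.09), with p = 0.00491 and adjusted p = 0.0977 by edgeR. Over the alternatives and with each mouse left out the adjusted p was between 0.0305 and 0.145. The lowest came with the score of fibroblast markers as a covariate (log2 fold change -0.31), where Col5a1 passed.

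The other 3 genes at an unadjusted p under 0.05 were higher in EE mice. Col18a1 was at 4.03 ± 0.815 CPM in SH and 4.59 ± 0.806 CPM in EE mice, a log2 fold change of 0.18 (SE 0.07, adjusted p = 0.185 by edgeR). Col11a1, a partner of Col11a2 in type XI collagen, was at 0.17 (SE 0.08, adjusted p = 0.235), and 0.11 (p = 0.179) without the 6 mice of high choroid plexus markers. Col6a6 was at 0.33 (SE 0.14, adjusted p = 0.209). For Col4a1, Col1a2 and Col3a1 the 95% intervals were -0.01 to 0.19, -0.08 to 0.37 and -0.15 to 0.32.

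Defeated mice of both housings were also set against unstressed mice, and edgeR called 0 of 41 collagen genes (0.0438% of all genes). At an unadjusted p under 0.05 limma and DESeq2 gave 3 each (4.44% and 4.62% of all genes), and edgeR also gave 3 (4.81%). These were Col12a1 at 0.11 (SE 0.04, p = 0.0167), Col9a3 at -0.18 (SE 0.08, p = 0.0251) and Col11a2 at -0.15 (SE 0.07, p = 0.0409). Col9a3 was at -0.09 (p = 0.146) without SH control mouse 3. The defeat by housing test gave 0 collagen genes after adjustment (0% of all genes). Before it limma gave 2 (6.01% of all genes), DESeq2 gave 3 (6.34%) and edgeR gave 2 (6.47%). These were Col19a1, above, and Col6a4 at -0.77 (SE 0.35, p = 0.0352, adjusted p = 0.756), which was -0.65 (p = 0.102) without the 6 mice of high choroid plexus markers. In the test of any difference among the 6 groups edgeR gave 0 of 41 after adjustment (0.350% of all genes). Before it edgeR gave 1, Col19a1 (11.1% of all genes), against 0 with limma (10.4%) and 2 with DESeq2 (11.6%). Without the 6 mice of high choroid plexus markers the count before adjustment was 5 (11.96% of all genes).

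The genes that make and process collagen were looked at in lists of their own, and here the comparison of EE with SH mice did hold calls. Of 19 listed genes of collagen synthesis and cross-linking, 17 were tested and 6 passed the adjusted threshold of edgeR, 4 higher and 2 lower in EE mice, with a median log2 fold change of 0.08 over the list beside 2.42% of all genes called. Plod1 and Plod3, which hydroxylate lysines of the collagen chain, P4ha2, which hydroxylates prolines, and Serpinh1, the chaperone that binds the folded helix, were higher. Colgalt1 and Colgalt2, which attach galactose to hydroxylysine, were lower.

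Plod1 ranged from 15.3 to 21.7 CPM with a median of 17.9 in SH and from 15.9 to 25.02 CPM with a median of 20.02 in EE mice. Most EE mice were above the SH median, and the ranges overlapped. The log2 fold change was 0.17 (SE 0.04, adjusted p = 0.00704 by edgeR). Serpinh1 ranged from 13.2 to 19.5 CPM (median 15.6) in SH and from 15.1 to 22.7 CPM (median 18.1) in EE mice, with a log2 fold change of 0.19 (SE 0.04, adjusted p = 0.00948). P4ha2 ranged from 7.30 to 13.2 CPM (median 9.55) in SH and from 8.16 to 14.3 CPM (median 11.2) in EE mice, with a log2 fold change of 0.20 (SE 0.05, adjusted p = 0.0187). The EE median was the higher for all 3 genes and the ranges overlapped.

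Plod3 was at 24.1 ± 1.60 CPM in SH and 26.0 ± 2.20 CPM in EE mice (log2 fold change 0.11, adjusted p = 0.0224 by edgeR). Colgalt1 fell from 56.6 ± 3.60 CPM in SH to 52.8 ± 2.57 CPM in EE mice, a log2 fold change of -0.10 (SE 0.02, adjusted p = 0.0155). Colgalt2 was at 8.84 ± 0.906 and 8.01 ± 0.831 CPM, a log2 fold change of -0.14 (SE 0.04, adjusted p = 0.0271). The log2 fold changes of the 6 genes lay between -0.14 and 0.20, and Colgalt2 and P4ha2 also passed the test of any difference among the 6 groups, with adjusted p = 0.0342 and 0.0369. All 6 were also called with limma, with DESeq2 and without the 6 mice of high choroid plexus markers, while Colgalt1 and Colgalt2 were not called with unstranded counts. Colgalt2 was also not called with the replicate number as a block, and its call held in 52 of the 54 analyses that left out 1 mouse. The most abundant genes of the list by mean CPM, Ppib (113 CPM over 54 mice), which speeds proline folding, and P4ha1 (90.2 CPM), a prolyl hydroxylase, did not pass.

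Of 8 genes of procollagen processing, Adamts2 and Adamts3, proteases that cut the amino-terminal propeptide from fibrillar procollagen, passed in opposite directions. Adamts2 was at 2.84 ± 0.720 CPM in SH and 3.72 ± 1.16 CPM in EE mice (log2 fold change 0.39, SE 0.11, adjusted p = 0.0422 by edgeR). This call held in 33 of the 54 analyses that left out 1 mouse and was lost with limma and without the filter on low counts. Adamts3 was at 30.2 ± 2.09 and 28.1 ± 1.83 CPM (log2 fold change -0.11, SE 0.03, adjusted p = 0.0214). The other protease of high level, Bmp1 at 39.96 CPM over 54 mice, which cuts the carboxy-terminal propeptide, did not pass. Of 10 matrix genes that associate with fibrils, Fbn1, the main protein of microfibrils, was lower in EE mice at 25.3 ± 3.39 against 28.3 ± 2.56 CPM (log2 fold change -0.16, SE 0.04, adjusted p = 0.0369), a call that held in 43 of the 54 analyses that left out 1 mouse and was lost without the filter on low counts. Sparc, a collagen-binding protein and the most abundant of that list at 186 CPM over 54 mice, did not pass.

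Collagen breakdown (7 of 10 listed genes tested), collagen receptors (7 of 9) and the partners of collagen in basement membranes (15 genes) held 0 calls of edgeR between EE and SH mice, and 0 with limma or DESeq2. Their most abundant genes by mean CPM over 54 mice were the inhibitors of breakdown Timp2 and Timp3 (81.8 and 81.7 CPM), the receptors Itgb1 and Ddr1 (64.0 and 26.7 CPM), and Agrn and Lamb1 (127 and 73.4 CPM) of basement membranes. At an unadjusted p under 0.05, which 17.6% of all genes had, edgeR gave 0 breakdown genes, 1 receptor, Itga11, and 6 basement membrane partners, of which Lama1, Lamc3, Nid1 and Hspg2 were above 0 and Lamb3 and Lama3 below. These 6 encode laminin chains, nidogen and perlecan.

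Markers of other cell types moved between EE and SH mice as well. By edgeR the oligodendrocyte marker Mbp was higher in EE mice (log2 fold change 0.25), 3 of 7 dentate granule cell markers, Npnt, Dsp and Tdo2, were lower (-0.33, -0.30 and -0.28), and 1 of 9 endothelial markers, Flt1 (0.23), and 1 of 10 fibroblast markers tested, Igf2 (0.31), were higher. The part of these cell types in the values of the collagen and collagen-processing genes was not tested. Red cell markers summed to 79.7 ± 20.4 CPM in SH control (n = 10), 167 ± 53.9 in SH RES and 222 ± 106 CPM in SH SUS mice, and to 85.8 ± 16.5 CPM in EE control, 145 ± 47.7 in EE RES and 180.0 ± 111 CPM in EE SUS mice. By two-sided exact permutation tests, adjusted over 98 tests, they were higher than in controls in SH RES (adjusted p = 0.00756), SH SUS (adjusted p = 0.00756) and EE RES mice (adjusted p = 0.0417), and the adjusted p was 0.0947 in EE SUS mice. Over the 54 mice 0 of 41 collagen genes, and 0.0766% of all genes, had an r above 0.5 with the red cell score.

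Chains that join in 1 molecule, and the fibril partners Col1a1 and Col3a1, were compared over the mice. Pearson's r of log2 CPM between Col4a1 and Col4a2 was 0.85 over 54 mice (Spearman's rho 0.75, and 0.87 on deviations from the group means), the highest of all pairs of collagen genes. It was 0.78 between Col1a1 and Col1a2 (rho 0.78), 0.76 between Col6a1 and Col6a2 (rho 0.69), 0.71 between Col4a5 and Col4a6 (rho 0.69), 0.69 between Col1a1 and Col3a1 (rho 0.66) and 0.66 between Col5a1 and Col5a2 (rho 0.67). Each had a permutation p of 1e-05, the smallest that 100000 resamples can give, and an adjusted p of 1.57e-05 over 11 relations. Without the 2 mice farthest from the median of the first gene r was between 0.66 and 0.82 in these 6 pairs.

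Other chains of 1 molecule did not show this. The r between Col11a1 and Col11a2 was 0.09 (rho 0.05, permutation p = 0.519) and that between Col9a1 and Col9a2 was 0.10 (rho 0.08, permutation p = 0.481), each with adjusted p = 0.519. Between the type I chain Col1a1 and the basement membrane chain Col4a1 it was 0.10 (rho -0.02, adjusted p = 0.519). Col4a3 and Col4a4 had r = 0.38 over 54 mice (rho 0.31, adjusted p = 0.00729), but 0.14 (rho 0.14, adjusted p = 0.421) in the 48 mice without high choroid plexus markers. For Col8a1 and Col8a2 no r over all mice is given, since the 6 mice lay apart from the 48 in Col8a1. Within the 48 mice r was 0.51 (rho 0.52, permutation p = 0.00022, adjusted p = 0.000346).

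**Figure D4:**
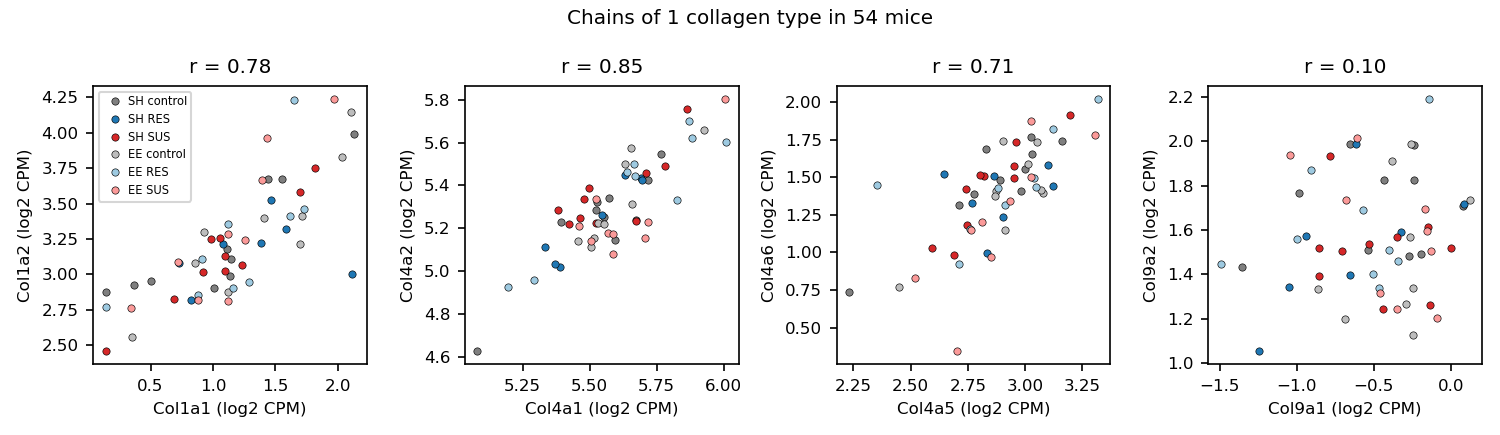
Log2 CPM of chains of 1 collagen type in 54 mice, colored by group. Each point is a mouse and r is Pearson's r. Col1a1 with Col1a2, Col4a1 with Col4a2 and Col4a5 with Col4a6 rise together with r from 0.71 to 0.85, Col9a1 with Col9a2 does not, and no group stands apart from the others.

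The type IV genes lie in head-to-head pairs, each pair read outward from a shared start region, which is why their start sites are shown. In the GRCm38 annotation used here, Col4a1 on the minus strand of chromosome 8 starts at base 11312826 and Col4a2 on the plus strand at 11312805, so that 22 bases belong to the first exon of both. Col4a4 and Col4a3 on chromosome 1 start 71 bases apart, and Col4a6 and Col4a5 on chromosome X 1308 bases apart. The 30 bases of chr8:11312801-11312830 (RefSeq sequence of GRCm38.p6, plus strand) hold the shared stretch in capitals.
Col4a1 and Col4a2: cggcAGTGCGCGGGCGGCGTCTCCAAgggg

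The regions before the RefSeq starts of Col4a5 and Col4a6, which varied together, and of Col1a2 and Col3a1, which varied together with r = 0.80, were searched for the CCAAT box (CCAAT), the GC box (GGGCGG) and a TATA box (TATAAA) on both strands, with matches in capitals. These are chrX:141475169-141475384 (plus strand), chrX:141474077-141474326 (minus strand), chr6:4505370-4505492 (plus strand) and chr1:45311288-45311537 (plus strand) of GRCm38.p6, from the RefSeq promoter table, kept to the stretch outside annotated exons. The stretch of Col1a2 lies inside the gene as annotated by GENCODE, where 1 transcript starts earlier.
Col4a5: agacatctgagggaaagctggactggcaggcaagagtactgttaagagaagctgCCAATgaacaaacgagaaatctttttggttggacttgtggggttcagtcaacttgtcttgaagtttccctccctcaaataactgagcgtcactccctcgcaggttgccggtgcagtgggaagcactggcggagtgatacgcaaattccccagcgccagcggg
Col4a6: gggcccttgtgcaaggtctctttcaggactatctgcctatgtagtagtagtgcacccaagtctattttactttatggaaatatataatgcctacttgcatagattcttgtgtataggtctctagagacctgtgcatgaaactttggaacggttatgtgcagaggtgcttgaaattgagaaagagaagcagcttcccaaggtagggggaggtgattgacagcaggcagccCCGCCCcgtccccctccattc
Col1a2: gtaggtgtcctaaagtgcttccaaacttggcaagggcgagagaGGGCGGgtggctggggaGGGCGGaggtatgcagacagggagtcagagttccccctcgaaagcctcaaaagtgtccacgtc
Col3a1: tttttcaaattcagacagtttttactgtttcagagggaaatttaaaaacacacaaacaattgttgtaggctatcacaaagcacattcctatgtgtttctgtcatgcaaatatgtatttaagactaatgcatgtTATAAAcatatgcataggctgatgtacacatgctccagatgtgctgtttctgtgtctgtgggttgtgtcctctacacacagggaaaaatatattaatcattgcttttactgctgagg

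The stretches held 1 CCAAT for Col4a5, 1 GC box for Col4a6 (on the opposite strand, as CCGCCC), 2 GC boxes for Col1a2 and 1 TATAAA for Col3a1, counted in the stretches as printed. In the whole 250 bases before the RefSeq start, which can run over an exon, GGGCGG was also found for Col4a5, and CCAAT for Col1a2. Of the 44 collagen genes, 35 had an entry in the table. GGGCGG was found in 21 of the 35 and in 32.9% of all 27025 promoters, CCAAT in 12 of 35 against 34.5%, and TATAAA in 5 of 35 against 13.0%. A match is a description of the letters and not a site that was measured.

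Since the punch holds several cell types, each collagen gene was set against marker scores of 14 cell types over the 54 mice, of which 13 are described by r. The score of 10 fibroblast markers (meningeal and perivascular fibroblasts, led by Dcn at 26.0 CPM, with list sums of 73.0 to 156 CPM) had r = 0.84 with Col1a2 (rho 0.79), 0.76 with Col3a1 (rho 0.74) and 0.69 with Col1a1 (rho 0.67). Each had adjusted p = 0.000385 by permutation over 616 relations, and r was 0.80, 0.73 and 0.65 without the 2 mice farthest from the median score. Within groups r was 0.83, 0.76 and 0.71.

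In all, 6 of the 41 collagen genes (14.6%) had r above 0.5 with the fibroblast score, against 0.525% of all genes. The other 3 were the basement membrane chain Col4a5 at 0.59, the FACIT gene Col9a2 at 0.58 and Col18a1 at 0.51. With the smooth muscle score, 5 of 41 were above 0.5 (0.613% of all genes), led by Col1a2 at 0.80, Col1a1 at 0.72 and Col3a1 at 0.68. Col18a1 and Col4a1 had r = 0.53 and 0.53 with the pericyte score (2.31% of all genes above 0.5). No collagen gene was above 0.5 with the endothelial score (1.39% of all genes), where Col4a1 had 0.34.

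The neuronal scores are given with the share over all genes. With the granule cell score, Col20a1 (r = 0.62) and Col22a1 (0.54) were above 0.5, or 4.88% of the 41 genes against 7.72% of all genes. Col11a1 (0.53) was above it with the interneuron score (2.44% against 2.31%), Col26a1 (0.61) with the thalamus score (2.44% against 2.53%) and Col6a2 (0.54) with the score of CA1 pyramidal cells (2.44% against 1.07%). Below -0.5 were Col23a1 (-0.59), Col22a1 (-0.56) and Col5a1 (-0.53) with the score of CA3 pyramidal cells, the neurons next to the dentate gyrus (7.32% against 3.70%), and 0 of 41 were above 0.5 with it (6.60% of all genes). Col11a1 (-0.59) was below it with the granule cell score, as was Col8a2 (-0.53 over all mice, the 6 of high choroid plexus markers included), or 4.88% against 7.54% of all genes. With the oligodendrocyte score Col8a2 was above 0.5 (r = 0.54 over all mice, 2.44% against 5.49% of all genes), and with the oligodendrocyte precursor and microglia scores 0 of 41 were (0.372% and 1.12% of all genes). SH SUS mouse 3, among the 6 mice, had the highest sum of oligodendrocyte markers (2122 CPM). The r of Col8a2 with the oligodendrocyte and granule cell scores is not given without the 6 mice.

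**Figure D5:**
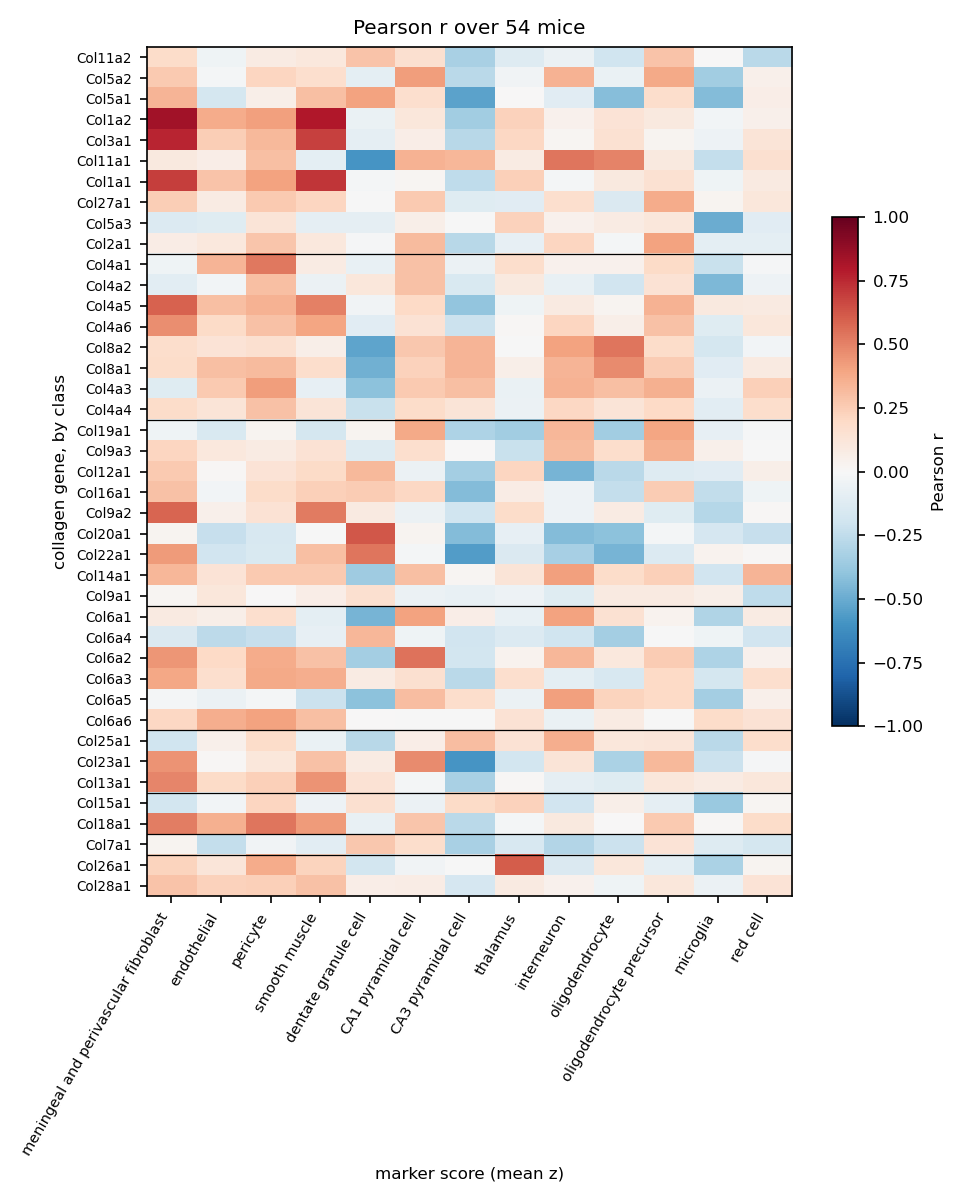
Pearson's r over 54 mice between log2 CPM of each of the 41 collagen genes (rows, by class, black lines between classes) and 13 marker scores (columns). Red is positive and blue negative. Col1a1, Col1a2 and Col3a1 are deep red in the fibroblast and smooth muscle columns, and Col4a1 and Col4a2 are pale there.

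With choroid plexus markers the mice formed separate groups of 6 and 48, so no r over all mice is given. Col8a1 ran from 1.95 to 6.36 CPM in the 6 mice and from 0.277 to 1.33 CPM in the other 48, without overlap. Col8a2 ran from 1.23 to 8.24 CPM in the 6 mice and from 0.0537 to 1.78 CPM in the others, and 5 of the 6 were above all others. For Col6a5, the fifth of the type VI chains, 3 of the 6 mice were above all others, for Col9a3 4 of 6, for Col4a3 2 of 6 and for Col4a4 1 of 6, the highest mouse being SH control mouse 3 for each of these genes.

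Within the 48 mice, the r with the choroid plexus score was 0.50 for Col8a2 (rho 0.53, permutation adjusted p = 0.00138 over 6 relations), 0.43 for Col6a5 (rho 0.36, adjusted p = 0.00654), 0.19 for Col8a1 (adjusted p = 0.404), -0.15 for Col9a3 (adjusted p = 0.477), 0.06 for Col4a3 (adjusted p = 0.699) and 0.10 for Col4a4 (adjusted p = 0.624). Without the 2 mice farthest from the median score r was 0.41 for Col8a2 and 0.29 for Col6a5. In the 6 mice Col4a1 ran from 41.7 to 58.5 CPM and Col1a2 from 7.24 to 11.9 CPM, both within the range of the other 48.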

How the data were processed

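The members of the collagen set and all gene lists were chosen with earlier results of these data known. Per the labels and the methods of the study, the authors discarded low-scoring reads and used STAR to align the others to GRCm38 (mm10), and the processing notes also name Picard, all without versions. The methods name featureCounts, while the files as deposited are laid out like the gene counts that STAR writes itself, raw counts per Ensembl gene without normalization. Counts of the reverse strand were used because the library kit keeps strand, and forward-strand counts were 3.51% to 4.13% of the stranded counts. Pairs counted as unmapped (13.9% to 19.9%), multimapping (8.70% to 12.1%), without feature (19.9% to 28.8%) or ambiguous (0.836% to 1.12%) stayed out of library sizes and tests. Of 45318 Ensembl identifiers, 44585 matched the GENCODE M21 annotation (GRCm38) used for names, classes of gene and exon lengths, and 0 columns were left unmapped to a mouse.

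Mice were grouped by the labels, each mouse counting as 1 replicate. Counts were normalized by TMM, filtered with filterByExpr by group and tested with the quasi-likelihood test of edgeR 4.0.16 in R 4.3.3, in 1 model of the 6 groups, with Benjamini-Hochberg adjustment over 18283 genes. Log2 CPM used a prior count of 2. Permutation tests used 100000 resamples or were exact, and all were two-sided. The named genes were, by rule, the 3 most abundant per length of each class of 3 or more (the most abundant of the others), the gene of smallest p in each comparison and, of each other list, the called genes and the 2 of highest mean CPM, and further genes with an unadjusted p under 0.05 were added after their values were seen. Marker scores beyond fibroblasts, endothelium, pericytes and choroid plexus were also added then, and so were the analyses without the 6 mice of high choroid plexus markers.

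In simulated data for SH SUS against SH control mice with 18183 genes, of which 200 changed by about 1 on the log2 scale, edgeR recovered 97.0% and called 13 others. The changed genes were drawn from all genes, whose median SD within groups was 0.161 against 0.358 for collagen genes. The share recovered therefore does not hold for collagen genes or for smaller changes. Replicate numbers recur across groups. They did not meet the rule for pairs, an r above 0.1 in every pair. Alternatives were RLE size factors, upper quartile scaling, no filter, 1 CPM in at least 7 mice, unstranded counts, EE control mouse 9 from its first run, a replicate block, marker scores as covariates, limma 3.58.1 (voom), the criterion of the study (limma, p under 0.05 and fold change above 1.3), DESeq2 1.42.0 and each mouse left out. Other steps used Python 3.11.15, NumPy 2.4.6, pandas 2.3.3, SciPy 1.17.1, matplotlib 3.10.9 and, in R, data.table (version 1.17.8). The result of 1 marker gene is not reported here.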

Additional observations from a re-analysis of the deposited data

Results flagged for a closer look

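Within each group, the highest or lowest mouse was compared with its nearest neighbor for 32 collagen genes named above, and 30 of 192 groups (15.6%) held a mouse far from the rest by Dixon's test, where chance gives about 1 in 20 for normal values. The test used log2 CPM, while the values below are given in CPM. It was not run over all genes, so the share says nothing particular to collagen genes. These came from 19 mice. SH control mouse 3 had 6 of them, with Col8a2 at 8.24 CPM (next mouse 1.06), Col8a1 at 6.36 CPM (1.05), Col9a3 at 21.4 CPM (10.8), Col4a3 at 1.15 CPM (0.369) and Col4a4 at 1.41 CPM (0.550) above the others and Col28a1 at 0.0854 CPM (0.290) below them. Its choroid plexus markers were the highest of all mice, and their part in these values was not tested. The other mice of high choroid plexus markers gave Col8a1 at 4.42 and Col8a2 at 4.33 CPM in EE SUS mouse 3, Col8a1 at 2.50 and Col6a1 at 43.7 CPM in EE control mouse 9, Col9a3 at 13.2 CPM in EE RES mouse 3 and Col9a2 at 3.73 CPM in SH SUS mouse 3, all as the highest of their group.

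Basement membrane chains stood out in other mice. Col4a1 and Col4a2 were both highest in EE SUS mouse 8, at 64.2 and 55.8 CPM. Col4a1 was highest in EE control mouse 2 at 60.7 CPM, Col4a2 was highest in SH SUS mouse 4 at 54 CPM and lowest in SH control mouse 7 at 24.6 CPM. Col4a5 and Col4a6 were both lowest in SH control mouse 4, at 4.60 and 1.57 CPM, and Col4a5 was lowest in EE control mouse 8 at 5.37 CPM.

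Of the other classes, Col1a2 was highest in EE RES mouse 1 at 18.6 CPM and Col25a1 in EE SUS mouse 1 at 136 CPM. Col6a6 was highest in EE RES mouse 6 at 1.77 CPM and lowest in EE control mouse 5 at 0.221 CPM, and Col28a1 was highest in EE SUS mouse 4 at 0.942 CPM. The lowest of their groups were Col13a1 in EE control mouse 2 at 0.688 CPM, Col23a1 in SH RES mouse 5 at 5.75 CPM, Col26a1 in EE RES mouse 7 at 1.36 CPM, Col6a2 in EE control mouse 8 at 1.5 CPM and Col6a4 in SH SUS mouse 5 at 0.812 CPM.

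The forward-strand counts, which entered the comparisons only within the unstranded alternative, held more reads than the reverse strand for 2 collagen genes, with 769 against 148 counts over 54 mice for Col10a1 and 853 against 310 for Col17a1.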

How the results depend on the processing

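The counts of collagen genes called were 0 in 144 of 149 alternative analyses over the 11 comparisons and in all 594 analyses that left out 1 mouse (lowest 0, highest 0). With the criterion of the study, 3 collagen genes were counted in SH RES against SH control (Col28a1, Col6a6 and Col6a4, beside 1.21% of all genes), 2 in EE control against SH control (Col4a3 and Col6a1, 1.12%), 1 in EE against SH (Col6a1, 0.613%) and 1 in defeat by housing (Col6a4, 1.68%), since it uses no adjustment. With the fibroblast score as a covariate, 1 was called in EE against SH (Col5a1), where 617 of all genes were called in place of 442, and the cause was not tested. With the replicate number as a block, 0 collagen genes were called in every comparison, and the deviations of same-numbered mice had a median r of 0.03 over 126 pairs (-0.26 to 0.44), 9 of 54 mice being closest to a mouse of their own number. Of the 6 mice of high choroid plexus markers, 4 carry the number 3. Of the collagen synthesis genes, 5 of 6 calls held under the block (not Colgalt2).

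Of the 22 log2 fold changes, none changed direction in 297 alternative values or in 1188 with 1 mouse left out. Fits of only the groups compared gave no value for the 9 from comparisons that use all groups, and the filter of 1 CPM in at least 7 mice gave none for 2. Of 81 alternative correlations, 1 lost its call, Col4a3 with Col4a4 at 0.14 within the 48 mice of low choroid plexus markers, an analysis chosen after seeing the data. Over all genes tested, the median SD of log2 CPM within groups was 0.280 at a mean CPM of 1 to 5 and 0.0905 above 100 CPM, so a change of given size is harder to call in collagen genes of low count.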
